A study of Mus musculus with 3 samples.

Results

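The BMP response genes described here are 7 genes known to respond to bone morphogenetic protein (BMP) signals, 3 of which also restrain them: Id1, Id2, Id3, Id4 and the inhibitors Smad6, Smad7 and Bambi. They were chosen by name, as every probe set of the array whose only gene symbol is one of these, which gave 12 of the 45101 probe sets in the deposited table and 7 of the 18193 genes it names. RNA came from dental papillae, the mesenchyme enclosed by the epithelium of the tooth germ, freed with enzymes from lower first molars of ICR mice, an outbred stock, at embryonic day 16 (E16), embryonic day 18 (E18) and postnatal day 3 (P3). Each sample pooled more than 20 papillae and each stage has 1 array, so there is no replicate, no test and no p-value, and precision is limited by having so few arrays. Because the tissue was not sorted, more cells of a type and more RNA per cell cannot be told apart.

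BMPs bind paired receptor kinases that phosphorylate Smad1, Smad5 and Smad9, which enter the nucleus with Smad4 and switch on target genes. The Id genes are among the best known of these targets; their proteins have a helix-loop-helix but no DNA-binding region, so they capture the E proteins that other helix-loop-helix factors need as partners. Smad6, Smad7 and Bambi are targets that feed back: the Smads block receptors and signalling Smads, and Bambi is a receptor-like membrane protein without a kinase. In the tooth, BMPs pass between epithelium and mesenchyme from the bud stage onward and take part in odontoblast differentiation.

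The deposited ratios keep the relation between stages but not the level. A level was recovered from their decimals, in the scaled units of the scanner software, and it may be understated. A floor of 82.0 units, the median of all recovered values, was set under low signals, and a difference with 1 side at the floor is a bound ("at least"). Where a gene has several probe sets, the one with the highest mean recovered level stands for it, and others that were measured are given beside it where the size differs. A difference of 2-fold or more is counted. As a measure of error, probe sets of the same gene differed with a standard deviation (SD) of 0.63 on the log2 scale at P3 against E16, 0.63 at E18 against E16 and 0.55 at P3 against E18, a spread that misses any error a whole array shares.

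Sequences just around the start site are shown for Smad6, the member with the largest total difference, and for Id2 and Id4, whose windows hold a GC-rich Smad1/5 element. RefSeq promoter windows (assembly GRCm38.p6, 250 bases before the start site and 50 after it) matched 4 of the 7 members: Id2, Id3, Id4 and Smad6. In capitals are GTCTAGAC, the palindromic Smad binding element, and GGCGCC, the GC-rich element; both read the same on the 2 strands.
Smad6, chr9:64022010-64022309, minus strand: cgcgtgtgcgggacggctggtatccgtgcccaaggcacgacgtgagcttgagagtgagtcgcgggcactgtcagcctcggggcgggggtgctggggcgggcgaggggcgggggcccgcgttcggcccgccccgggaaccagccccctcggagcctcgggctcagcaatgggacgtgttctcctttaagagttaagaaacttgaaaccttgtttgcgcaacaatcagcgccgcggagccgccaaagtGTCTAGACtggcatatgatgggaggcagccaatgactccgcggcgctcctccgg
Id2, chr12:25096043-25096342, minus strand: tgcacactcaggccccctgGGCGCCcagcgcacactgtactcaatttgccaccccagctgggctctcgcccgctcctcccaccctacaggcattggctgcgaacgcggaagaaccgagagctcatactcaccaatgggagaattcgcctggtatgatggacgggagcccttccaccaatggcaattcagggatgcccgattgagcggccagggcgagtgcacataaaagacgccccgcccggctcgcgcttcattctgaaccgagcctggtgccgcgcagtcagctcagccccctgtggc
Id4, chr13:48260866-48261165, plus strand: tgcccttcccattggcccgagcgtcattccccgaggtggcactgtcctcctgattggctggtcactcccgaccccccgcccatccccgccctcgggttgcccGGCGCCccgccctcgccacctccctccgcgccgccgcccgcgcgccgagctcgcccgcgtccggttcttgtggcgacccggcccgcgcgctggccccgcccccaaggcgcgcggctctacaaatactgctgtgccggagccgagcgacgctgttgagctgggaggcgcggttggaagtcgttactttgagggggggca

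The Smad6 window held GTCTAGAC from position -4, counted from the window's own start site, so that the palindrome spans that site. The same 8 bases occurred in 70 of 32851 windows (0.213%). GGCGCC occurred in 11.9% of windows, at position -231 in Id2 and -148 in Id4, and in neither Smad6 nor Id3. The shorter Smad site, GTCT or its complement AGAC, was in 88% of windows; Id3 held 3, Smad6 2 (both inside the palindrome), Id2 1 and Id4 none. The E-box CANNTG was in 72.3% of windows, among them those of Smad6 and Id2 with 1 match each. A match is a string of letters and was not tied to binding here. The 33 measured genes whose window holds GTCTAGAC, Smad6 included, had a median log2 difference of -0.35 at P3 against E16, beside -0.17 over the 9811 measured genes with any window. In that comparison 2 of the 33 were at least 2-fold higher (6.06%, beside 6.57% of the 9811) and 4 lower (12.1%, beside 15.8%). At E18 against E16, 4 of 32 were higher (12.5%, beside 7.92% of 9704) and 3 lower (9.38%, beside 8.07%). The medians there were 0.02 and -0.03. At P3 against E18, 2 of 33 were higher (6.06%, beside 4.02% of 9746) and 4 lower (12.1%, beside 11.9%).

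Most of these genes were lowest at E16 and highest at E18. Of the 12 probe sets, 9 reached the floor on each array; 8 of these were lowest at E16, 7 were highest at E18, 1 at P3 and 1 at E16. Taking 1 probe set per gene, 5 of the 7 (all 4 Id genes and Bambi) had the order E16 lowest, P3 in between, E18 highest, an order that 14.9% of the 9861 genes that reached the floor on each of the 3 arrays had. Smad6 had E16 lowest and P3 highest (12.1% of those genes), and Smad7 the reverse, E16 highest and P3 lowest (27.7%). After quantile normalization Id3 left the first order, which then held for 4 of the 7.

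**Figure D1:**
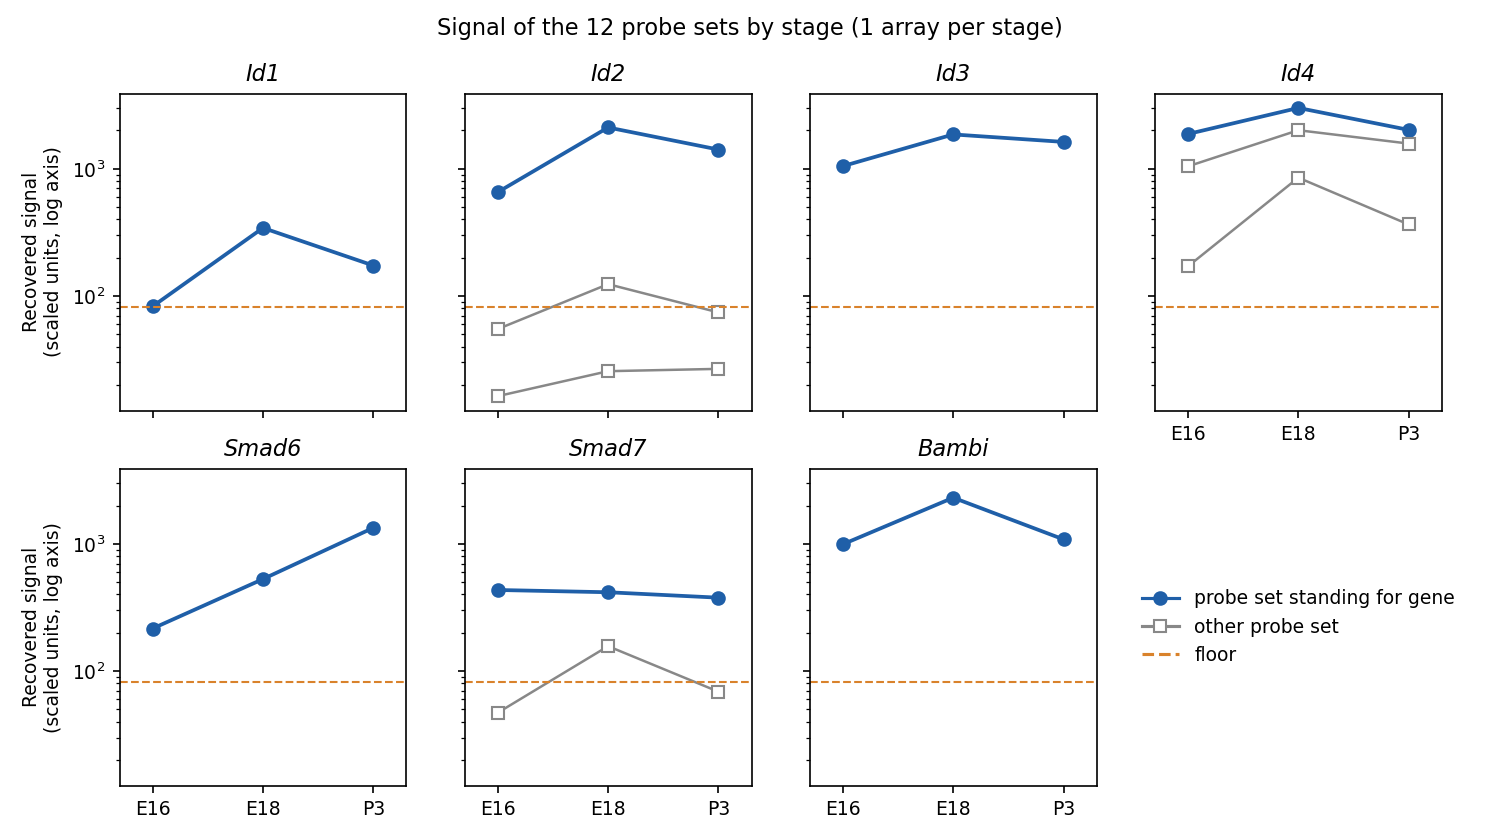
Recovered signal (log axis, scaled units) at E16, E18 and P3, 1 array each, for every probe set of the 7 genes; filled circles mark the probe set that stands for the gene, open squares the others, and the dashed line the floor of 82.0. The probe sets that stand for the Id genes and Bambi peak at E18, Smad6 climbs at both steps, and the brighter Smad7 probe set is nearly level.

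By the probe sets that stand for them, Id1 and Id2 differed more between E16 and E18 than Id3 and Id4 did; averaged over probe sets, the log2 difference was 1.14 for Id2 and 1.31 for Id4. Id1, a direct target of BMP-activated Smads in many cell types, had signals of 82.7 at E16, 343 at E18 and 174 at P3. Its E16 value lies just above the floor, and the E18 value stands above the other stages. Id1 was 4.14-fold higher in E18 than in E16, a difference that 126 of 12034 measured genes exceeded. At P3 it was 1.98-fold lower than at E18 and 2.10-fold higher than at E16. With a floor of 164, above its E16 signal, the log2 differences against E16 became bounds of 1.06 at E18 and 0.08 at P3, and the 2-fold call at P3 was lost.

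Id2, the family member that like Id1 holds back differentiation in many tissues, had signals of 655, 2113 and 1416 at E16, E18 and P3 by the probe set that stands for it. E16 was again the low stage. Id2 was 3.23-fold higher in E18 than in E16, 1.49-fold lower in P3 than in E18 and 2.16-fold higher in P3 than in E16. Another probe set read 54.9, 124 and 74.2, with only E18 above the floor, and gave at least 1.51-fold higher in E18 than in E16. The last stayed below the floor on every array, at 16.3, 25.6 and 26.7, and no difference is drawn from it.

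Id3, often expressed together with Id1, had signals of 1049, 1863 and 1627 at the successive stages. It was 1.78-fold higher at E18 and 1.55-fold higher in P3 than in E16, both under 2-fold as deposited (2.06-fold at P3 after quantile normalization). The difference at P3 against E18 was -0.20 on the log2 scale, within the spread between probe sets, and turned to 0.31 after quantile normalization.

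Id4, the family member best known from the nervous system and from osteoblast differentiation in the mouse, has 3 probe sets, all designed from the same transcript record. They gave 1877, 3011 and 2022 for the brightest, 1045, 2010 and 1578 for the next, and 171, 851 and 365 for the dimmest, at E16, E18 and P3. All 3 peaked at E18. They disagreed on the size: Id4 was 1.60-fold, 1.92-fold and 4.98-fold higher in E18 than in E16, and 1.08-fold, 1.51-fold and 2.13-fold higher in P3 than in E16. At P3 against E18 the same probe sets gave 1.49-fold, 1.27-fold and 2.33-fold lower. The mean over the 3 was a log2 difference of 1.31 at E18 against E16, where the brightest alone gave 0.68.

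Among the inhibitors, Smad6 differed at both steps in the same direction. Smad6, which mainly restrains BMP signals, had a signal of 216 at E16, 529 at E18 and 1338 at P3, by its only probe set. It was 2.45-fold higher in E18 than in E16, 2.53-fold higher in P3 than in E18 and 6.20-fold higher in P3 than in E16. Only 82 of 12192 genes had a larger difference between P3 and E16. Smad6 was 1 of the 39 genes (0.336% of 11609) at least 2-fold higher at both steps, and the only member among them.

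Smad7, which restrains TGF-beta as well as BMP signals, had signals of 434, 417 and 378 at E16, E18 and P3 by the brighter of 2 probe sets. These 3 values lie within the spread between probe sets, and their small negative differences (-0.06 at E18 against E16, -0.20 at P3 against E16) became positive after median scaling (0.04 and 0.09). The other probe set, of a type that can detect several transcripts, read 47.0, 157 and 68.8, above the floor only at E18. It gave Smad7 at least 1.91-fold higher in E18 than in E16 and at least 1.91-fold lower in P3 than in E18, so the 2 probe sets disagree.

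Bambi, the membrane pseudoreceptor, had signals of 993 at E16, 2308 at E18 and 1085 at P3. The E16 and P3 values were close, and E18 stood above both. Bambi was 2.32-fold higher in E18 than in E16 and 2.13-fold lower in P3 than in E18, while P3 exceeded E16 by 1.09-fold, within the spread between probe sets. It was the only member past 2-fold up and then down, as were 3.2% of the 11609 genes measured at both steps. The log2 difference of Bambi at P3 against E18 was -1.09 as deposited, -0.90 after median scaling and -0.58 after quantile normalization.

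**Figure D2:**
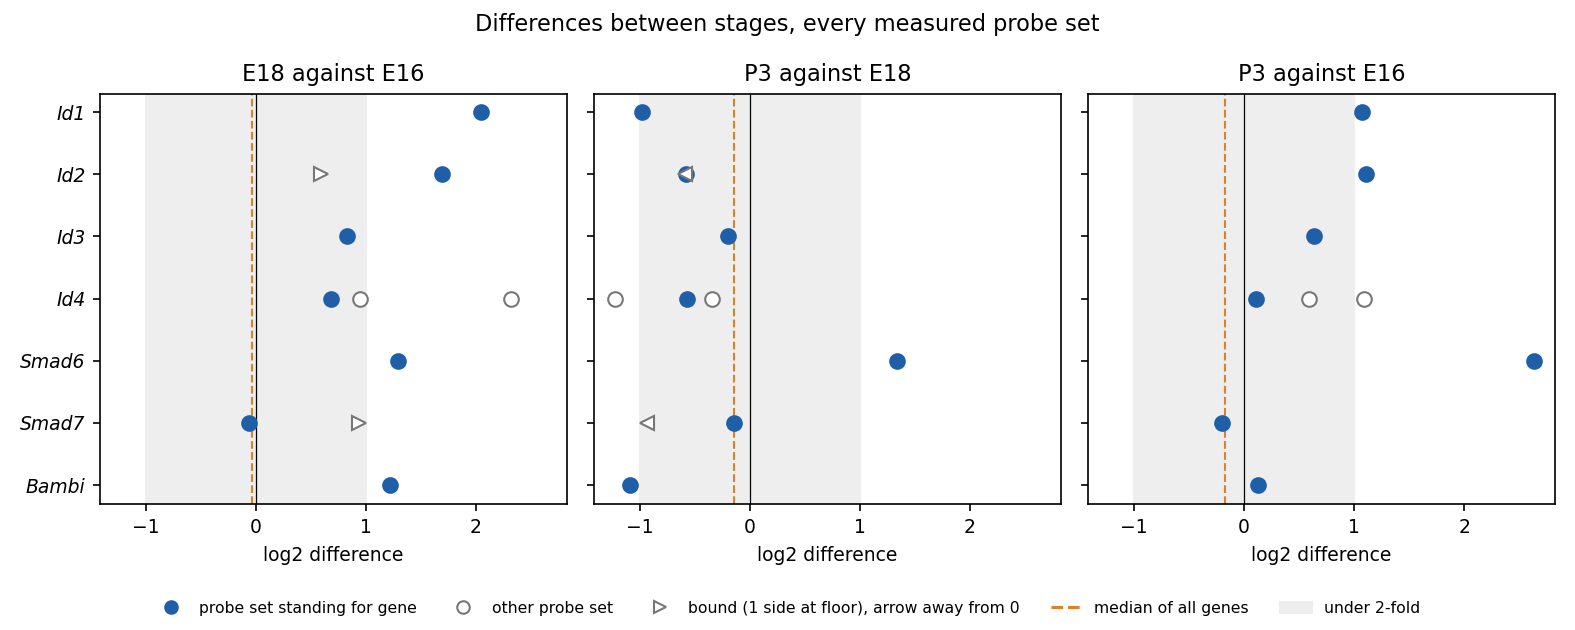
Log2 difference (x axis) of every measured probe set of each gene for E18 against E16, P3 against E18 and P3 against E16; filled points stand for the gene, open points are its other probe sets, triangles are bounds, the grey band is under 2-fold and the dashed line is the median of all genes. Between E16 and E18 every measured probe set but the brighter one of Smad7 lies to the right of 0, and at P3 against E18 Smad6 alone lies to the right.

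At E18 against E16, 4 of the 7 genes (Id1, Id2, Smad6 and Bambi) were at least 2-fold higher, where 8.1% of 12034 measured genes were, and none was 2-fold lower, where 8.13% were. The median log2 difference of the 7 was 1.22, beside -0.04 over all genes. At P3 against E18, Smad6 was the 1 gene at least 2-fold higher, against 4.08% of 12115 genes, and Bambi the 1 gene lower, against 11.8%; the median was -0.57 beside -0.15. At P3 against E16, 3 (Id1, Id2 and Smad6) were at least 2-fold higher, against 6.58% of 12192 genes, and none lower, against 15.6%; the median was 0.63 beside -0.17. Without probe sets that can detect several transcripts, which removes those standing for Id1 and Id2, the counts of higher genes were 2 of 6 at E18 and 1 of 5 at P3, both against E16. Under the other alternatives they ran from 3 to 5 at E18 and from 2 to 4 at P3. With median scaling, all genes at P3 against E16 had a median of 0.09 and the members one of 0.92, and higher genes made up 51.6% of all calls in that comparison, against 29.6% as deposited. At E18 against E16 that share was 60.0% after median scaling, against 49.9% as deposited. At P3 against E18 that share was 43.4% after median scaling and 47.3% after quantile normalization, against 25.7%.

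**Figure D3:**
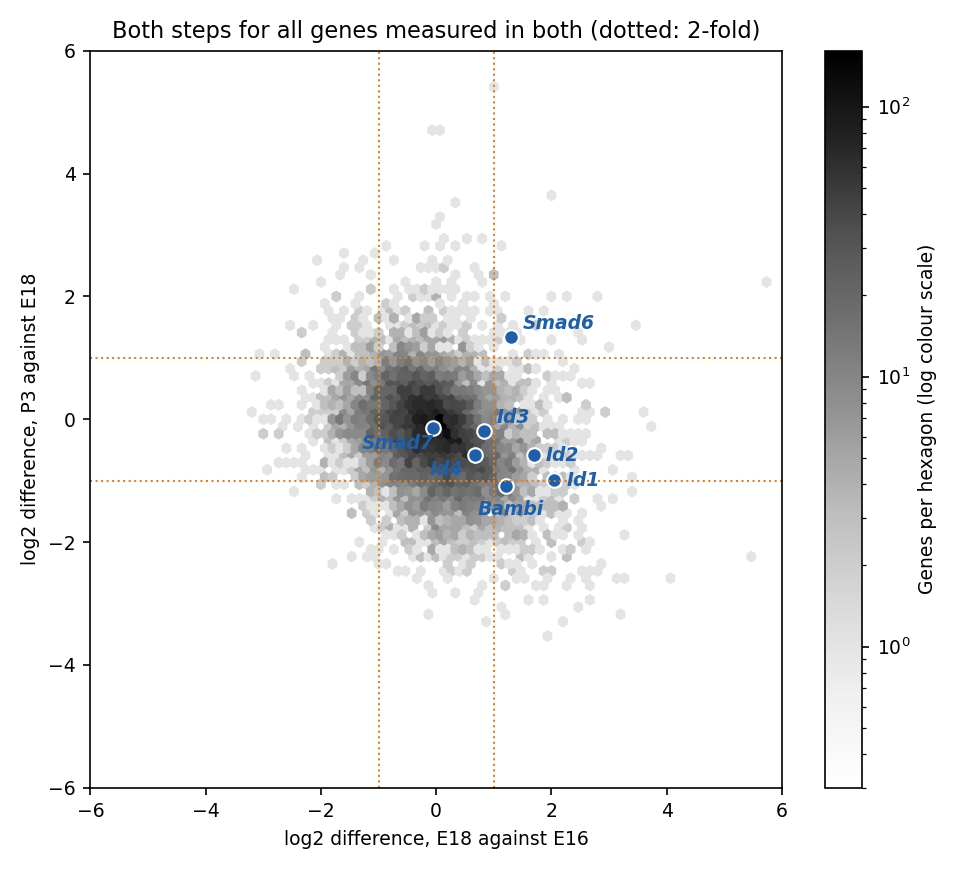
Log2 difference at E18 against E16 (x axis) and at P3 against E18 (y axis) for the 11609 genes measured at both steps (grey hexagons, log colour scale), with the 7 members as labelled points and dotted lines at 2-fold. Smad6 lies past 2-fold on both axes, Bambi past 2-fold to the right and downward, and Smad7 near the centre.

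Array controls and cell type markers also differed between the stages. Over 18 spike-in probe sets for bacterial and phage RNAs added at hybridisation, the median ratio was 2.17 for E18 over E16 (range 1.68 to 4.43) and 1.04 for P3 over E16. The ratio of the 3' to the 5' actin probe set was, relative to E16, 3.87-fold at E18 and 2.46-fold at P3. For Gapdh the same ratio was 1.42-fold at E18 and 0.355-fold at P3, relative to E16. The ratio on a single array is not given, because it divides recovered levels of different probe sets, each of which may be understated. Epithelial markers were higher too: all 9 on the array, among them the keratin genes Krt5 and Krt17 and the enamel matrix genes Ambn and Amelx, were at least 2-fold higher in E18 than in E16 (median 1.86), and 7 of the 9 were at least 2-fold lower in P3 than in E18 (median -2.17), with summed signals of 7178, 22106 and 11237 at E16, E18 and P3. Every one of the 9 except Amelx was at or above the floor already at E16. Odontoblast markers were higher as well, 4 of 7 at least 2-fold in E18 than in E16 with 0 lower, and 2 of 6 (Dmp1 and Panx3) were at least 2-fold lower in P3 than in E18, with 3 higher. Dental papilla mesenchyme markers had 7 of 10 at least 2-fold lower and 1 higher in E18 than in E16 (median -1.69). The part of spike-ins, RNA quality, epithelium, odontoblasts and mesenchyme in the E18 values of the Id genes and Bambi was not tested.

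Endothelial cells, which can express Id1, Id3, Smad6 and Smad7, had 5 of 10 measured markers at least 2-fold lower and 0 higher in E18 than in E16 (median -0.68), and 1 lower and 0 higher in P3 than in E16 (median -0.47), with summed signals of 5059, 2673 and 2821 over all 12 markers at the 3 stages; Pecam1 and Tie1 stayed below the floor. Kdr made up 2571 of the 5059 units at E16. At P3 against E18 the endothelial median was 0.34, with 0 of 10 past 2-fold, and the part of endothelium in the Smad6 values was not tested. Macrophage markers had 3 of 8 at least 2-fold higher and 0 lower in E18 than in E16, and 6 of 10 higher and 0 lower in P3 than in E16, with summed signals of 2264, 4410 and 8208, and their part in the Smad6 values was not tested. Mural cell markers had 2 of 7 higher and 0 lower in P3 than in E16, and 1 higher and 1 lower in E18 than in E16. Of the markers of the labelled tissue, all 10 of dental papilla mesenchyme were at or above the floor on every array, with 7 at least 2-fold lower and 2 higher in P3 than in E16. Odontoblast markers had 5 of 7 higher and 0 lower in P3 than in E16. At P3 against E16, erythroid markers had 3 of 4 at least 2-fold lower and cartilage and bone markers 2 of 5 higher and 1 lower. The single measured marker of glia and neurons was under 2-fold.

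Upstream of the members, BMP ligands went both ways. Bmp2, a ligand of odontoblast differentiation, read 136 at E16, 1674 at E18 and 1806 at P3, and was 12.3-fold higher at E18 and 13.3-fold higher in P3 than in E16. Bmp8a, whose E16 signal was under the floor, was at least 6.08-fold and at least 7.09-fold higher at the same stages. Bmp4, the classic mesenchymal BMP of the early tooth germ, had signals of 977, 670 and 355 and was 2.75-fold lower in P3 than in E16, and Bmp5 was 2.89-fold lower (1.26-fold by a dimmer one). Of 7 measured ligands 2 were at least 2-fold higher and 2 lower in P3 than in E16 (median 0.28).

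The secreted antagonists, which bind BMPs or related ligands outside the cell, had 3 of 6 measured members at least 2-fold lower in P3 than in E16 and 0 higher (median -1.15). Sostdc1 was 4.26-fold lower (2.47-fold by another probe set) and Fst, which mainly binds activin, 3.84-fold (6.40-fold by another). Twsg1 was 3.07-fold lower, where 2 other probe sets gave 1.13-fold and 1.21-fold. Nog and 5 other antagonists stayed below the floor on every array. Of 6 measured receptors none was past 2-fold at P3 or at E18 against E16 by the probe set that stands for it. Other probe sets were: one gave Bmpr2 2.10-fold higher at E18, one Acvr2a 2.20-fold lower at E18 and one Bmpr1a 2.08-fold lower at P3, each against E16. The co-receptor Eng alone was at least 2-fold higher in P3 than in E18 (2.24-fold, or 1.49-fold by another probe set).

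Signalling Smads were lower or near level after E16. Smad1 had signals of 2630, 1751 and 921 at E16, E18 and P3 and was 2.86-fold lower in P3 than in E16 by the probe set that stands for it, while the remaining 2 read 1.35-fold lower and 1.25-fold higher. Smad5 was 2.75-fold lower, and 2 others gave 1.47-fold and 1.30-fold lower. Smad2, which carries TGF-beta and activin signals, was 2.73-fold lower (2.18-fold by another). Of 5 measured signalling Smads 3 were at least 2-fold lower in P3 than in E16 and 0 higher (median -1.45), Smad3 and Smad4 were under 2-fold in every comparison, and Smad9, the remaining BMP Smad, was below the floor throughout.

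The homeobox gene Msx1 read 927, 721 and 1666 at E16, E18 and P3, 2.31-fold higher in P3 than in E18, though another probe set gave 1.15-fold. Hey1, a transcriptional repressor, was 4.28-fold and Alpl, alkaline phosphatase of mineralising cells, 3.93-fold higher in P3 than in E18, with under 2-fold between E18 and E16. Msx2 was 2.02-fold higher in E18 than in E16 by one probe set and level by another (0.99-fold). Of 7 measured targets on this list 2 were at least 2-fold higher in E18 than in E16, 3 in P3 than in E18 and 3 in P3 than in E16, with 0 lower in each.

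TGF-beta response genes, which share Smad7 as an inhibitor, had 5 of 11 at least 2-fold higher and 0 lower in E18 than in E16, and 7 higher and 0 lower in P3 than in E16 (median 1.29). Cdkn1a, an inhibitor of cell division, was 6.57-fold higher in E18 than in E16 and reached a log2 difference of 3.32 at P3 against E16. The matrix protein gene Tgfbi was 2.38-fold and 4.38-fold higher at those stages (2.41-fold to 3.39-fold and 2.45-fold to 5.78-fold by 3 others), and Ltbp2 at least 1.83-fold and at least 4.61-fold. Col1a1 was at least 81.1-fold higher in P3 than in E16 by one probe set and 2.04-fold by another. Of 9 regulators of Smad turnover and co-repressors, 2 were higher and 2 lower in P3 than in E16. The ubiquitin ligase gene Nedd4l was 5.39-fold lower (3.80-fold by another and at least 1.05-fold by a dim one) and Stub1 2.71-fold lower (1.30-fold by another). Tob1, an antagonist of BMP Smads in mouse osteoblasts, was 2.19-fold and Zeb2, a Smad-binding repressor, 2.51-fold higher, with 3 other Zeb2 probe sets between 1.44-fold lower and 2.25-fold higher.

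Of the E proteins that Id proteins capture, Tcf12 and Tcf4 stayed near level by their brightest probe sets between E16 and E18. Tcf3 stayed below the floor on every array. Tcf12 had signals of 2078, 2397 and 1257 at E16, E18 and P3 and Tcf4 had 1331, 1066 and 722; Tcf12 was 1.65-fold and Tcf4 1.84-fold lower in P3 than in E16, both under 2-fold. Across 4 other probe sets of Tcf12 the difference at E18 against E16 ran from 1.05-fold lower to 2.06-fold higher. Across 4 other probe sets of Tcf4 the same comparison ran from 1.13-fold lower to 1.90-fold higher. At P3 against E16 those 4 ran from 2.85-fold lower to 1.40-fold higher. Twist1, a helix-loop-helix factor of mesenchyme that pairs with E proteins, was 4.37-fold lower at E18 and 4.16-fold lower in P3 than in E16, and Hes1 was 2.15-fold higher at E18. Of 11 measured helix-loop-helix genes 2 (Hey1 and Heyl) were at least 2-fold higher and 1 (Twist1) lower in P3 than in E16. Among 10 cell cycle regulators tied to Id proteins, 4 were at least 2-fold higher and 3 lower in P3 than in E16. Among the lower, Ets1, an activator of cell cycle inhibitor genes that Id proteins oppose, was 5.13-fold lower (from 1.28-fold to 2.42-fold by 3 others) and Top2a 3.36-fold lower (2.15-fold by another). Ccnd1, cyclin D1, peaked at E18 like most members, with 810, 3818 and 1452 at the 3 stages and was 4.71-fold higher in E18 than in E16 (5.05-fold and 7.73-fold by 2 others).

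**Figure D4:**
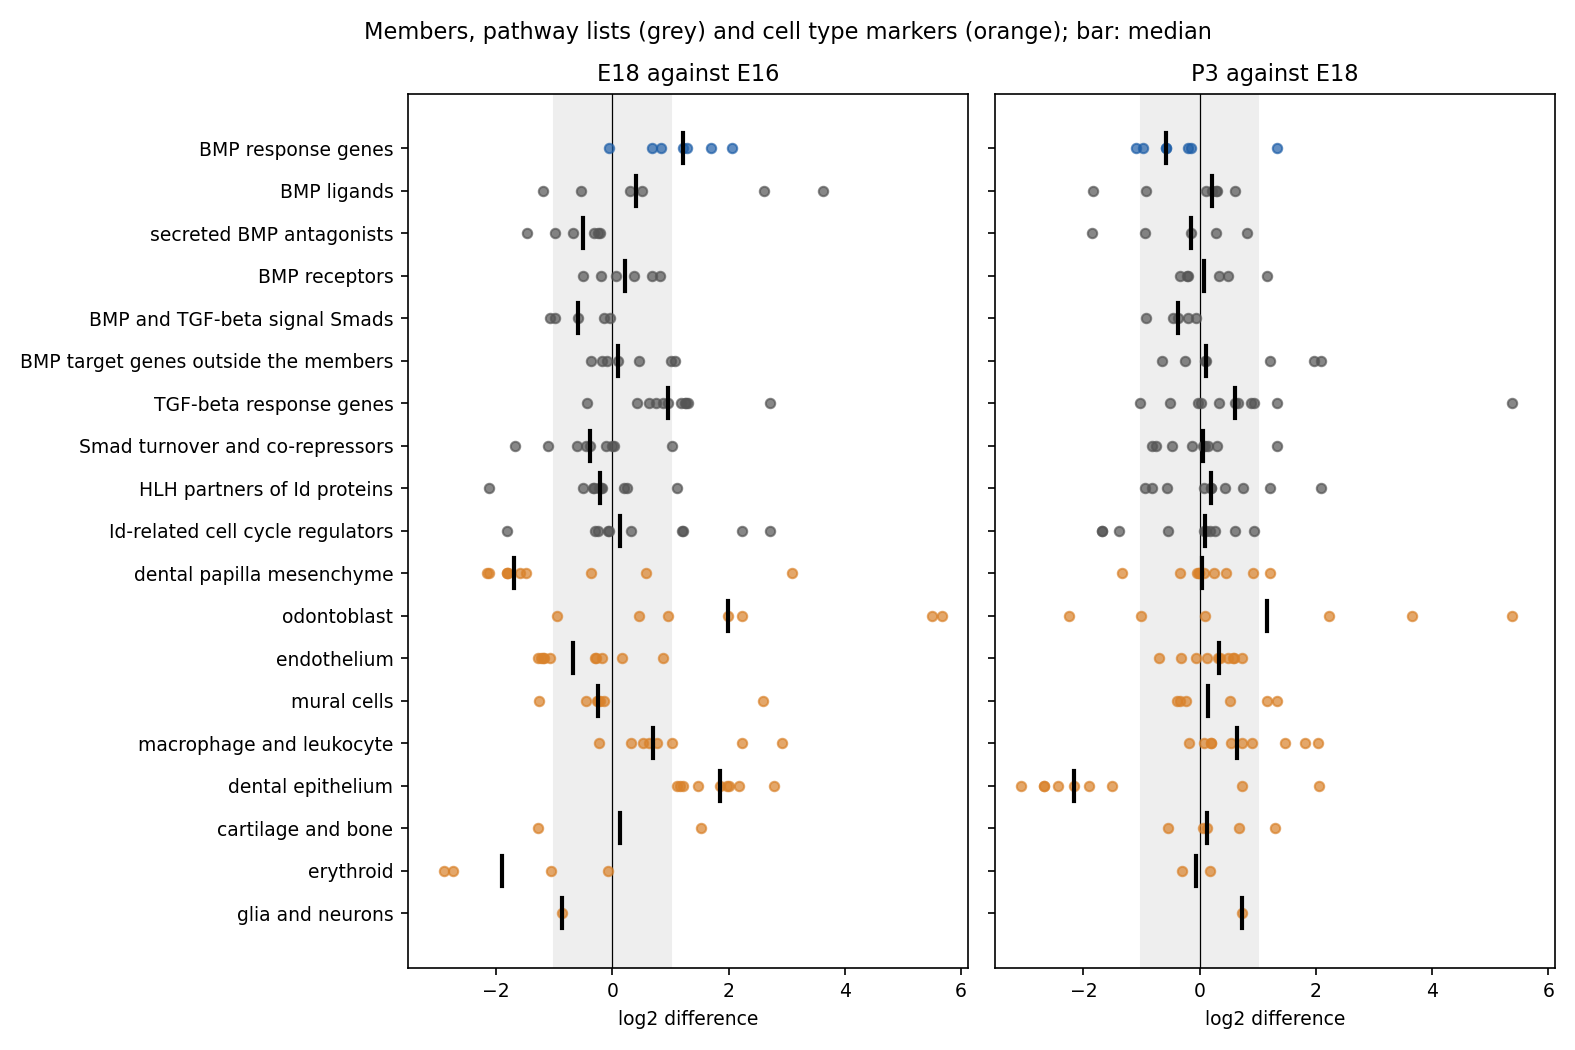
Log2 difference (x axis) of each measured gene at E18 against E16 and at P3 against E18 for the 7 BMP response genes (blue), 9 pathway lists (grey) and 9 lists of cell type markers (orange); black bars are list medians and the grey band is under 2-fold. The dental epithelium list moves up and then down, as do most of the blue points, while other BMP targets have medians of 0.10 and 0.11 at the 2 steps.

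By the distance between log2 values centred over the 3 arrays, the genes most like Id1 among 9861 were Snapin, a vesicle fusion protein gene (distance 0.10), Chfr, a mitotic checkpoint ligase gene (0.10), and Scn2b, a sodium channel subunit gene (0.11). Another Chfr probe set gave a like pattern (4.05-fold higher in E18 than in E16), but another of Snapin gave 1.21-fold lower, and 2 of Scn2b gave 3.14-fold and 1.09-fold higher. The genes most like Smad6 were the receptor tyrosine kinase gene Kit (0.05), the G protein regulator gene Rgs3 (0.12) and Kazald1, a secreted protein of the IGF-binding protein family (0.14). Kit read 260, 636 and 1544 at E16, E18 and P3, and another Rgs3 probe set gave 1.38-fold lower in E18 than in E16. Such likeness rests on only 3 points per gene and was not tested. Of the 9861 genes, 25 lay within 0.25 of Id1 and 5 within 0.25 of Smad6. Between members, Id1 and Id2 were closest (0.31), followed by Id3 and Id4 (0.38), while Smad6 and Bambi lay farthest apart (2.01).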

How the data were processed

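The deposited file holds ratios, each probe set divided by the middle of its 3 scaled signals; this was worked out from the values, since the middle was 1 within 1e-06 in 90.4% of 45101 probe sets. GCOS is named, with no version, per the submitters' processing notes; for scaling, centring and build the sources used here name nothing. In the other 4347 probe sets 99.98% of values were whole multiples of 1 step per array, within 0.01 of a step, which gave factors of 0.718 (E16) and 1.08 (E18) relative to P3. Levels were recovered as the smallest whole number of steps, of 0.1 signal units, matching all 3 ratios within 3e-07; 1 probe set had no solution. Large solutions may be chance ones, which understates the level. Ratios between stages are unaffected, but the floor, the choice of probe set for a gene and summed signals rest on the recovered levels. With 1 array a stage, no test was possible.

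Signals were floored at 82.0 before log2, and a gene entered a comparison with either array at or above the floor. Symbols came from the platform annotation (34945 probe sets with 1 symbol). Members, lists and motifs were chosen with earlier results of these data known. Named from each list were at most 4 genes with the largest differences of 2-fold or more, and 11 fixed ones where measured; for Id1 and Smad6 the 3 nearest genes; Pecam1, Tie1, Panx3, Smad3, Smad4 and 3 receptors were picked after their values were seen. Python 3.11.15, numpy 2.4.6 and pandas 2.3.3 were used. The recovery was also run on simulated data, and its outcome is not given here.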

Additional observations from a re-analysis of the deposited data

How the results depend on the processing

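Over 8 alternatives (2 scalings, 3 floors and 3 choices of probe set), 159 of 164 member differences moved by no more than the spread between probe sets and none past 2-fold turned its sign. The 5 that moved were Id1 with the floor at 164 (0.08 at P3 and 1.06 at E18, both against E16), where it becomes a bound because its E16 signal lies below that floor, Id2 at E18 against E16 by its other measured probe set (0.59, under 2 alternatives) and Id4 at E18 against E16 averaged over its probe sets (1.31). Without probe sets that can detect several transcripts, the members at least 2-fold higher numbered 1 at P3 and 2 at E18, both against E16; Id1 had no other probe set. Under the others those counts ran from 2 (doubled floor) to 4 (quantile normalization) at P3, against 3, and from 3 (smallest difference) to 5 (mean) at E18, against 4. Members at least 2-fold lower in P3 than in E18 numbered 0 after median scaling and 0 after quantile normalization, against 1 (Bambi) as deposited. Quantile normalization used recovered levels, which may be understated. No paired analysis was possible because each stage has 1 array.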
